A study of Saccharomyces cerevisiae with 12 samples.

Results

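The proteasome is the protease that degrades proteins marked with ubiquitin. Its core particle is a stack of alpha and beta rings, and 3 kinds of beta subunit, Pre3, Pup1 and Pre2, carry the active sites. A regulatory particle caps the core: its base holds a ring of ATPases (Rpt1 to Rpt6) that unfold and thread substrates, and its lid holds Rpn11, which removes ubiquitin. In yeast, Rpn4 is the transcription factor that activates the subunit genes, and it is itself a short-lived substrate of the proteasome, so that the level of the enzyme is set by feedback. The members described here are 32 genes for subunits and RPN4, 33 genes of the 5449 Saccharomyces cerevisiae genes on the array, chosen by gene symbol. The 32 subunit genes comprise 14 of the core particle (7 of the alpha ring and 7 of the beta ring), 6 ATPases, 4 other base subunits (RPN1, RPN2, RPN10 and RPN13) and 8 lid subunits. SEM1, also a lid subunit, is not among the members and was read with the proteasome partners below. Each member had 1 probe set, and all 33 had a mean log2 signal above the background of 5.49.

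RNA came from 12 cultures of 4 strains, 3 biological replicates each, hybridised to Affymetrix arrays that also carry probe sets for a second yeast. Of these strains, WT and WT(hsf1) carry HAC1, and hac1∆ and hac1∆(hsf1) lack it. The labels give neither the parent strain nor what the addition (hsf1) consists of, and they do not say whether several clones were used. Every culture was grown in medium without uracil and was exposed for 2 h to 2.5 mM dithiothreitol (DTT), which breaks disulfide bonds and so disturbs protein folding in the endoplasmic reticulum (ER). No culture without DTT was analysed, so the response to DTT itself is not seen here. Hac1 drives the unfolded protein response, which raises the folding capacity of the ER, and Hsf1 drives the heat shock response. The p-values measure the spread between these cultures, and the number of arrays limits the precision.

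HAC1 stood at a log2 signal of 10.37 to 10.86 on the 6 arrays of strains with the gene and at 5.21 to 5.31 on the 6 arrays of the hac1∆ strains. HSF1 stood at 8.08, 9.61 and 8.11 in WT, at 8.41 to 8.63 in WT(hsf1), at 7.75 to 7.87 in hac1∆ and at 10.54 to 10.81 in hac1∆(hsf1). The strain labelled WT(hsf1) was thus above WT replicates 1 and 3 in HSF1 and below WT replicate 2. WT replicate 2 stood apart: its correlation across genes with the arrays of hac1∆(hsf1) was 0.973 to 0.978, beside 0.939 to 0.951 for the other WT arrays. Whether every culture carries its right label cannot be told from these values, and each comparison with WT or WT(hsf1) rests on the labels as given. WT replicate 3 differed in a sign of RNA quality, the gap between the 3' and the 5' control probe set of ACT1 (actin), which was 0.886 there and 0.393 to 0.645 on the other 11 arrays. The same gap for SPT15 (TATA-binding protein) was 1.03 in WT replicate 3, within the 0.95 to 1.26 of the others.

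RPN4 was lowest in WT(hsf1) and highest in hac1∆(hsf1), while WT and hac1∆ overlapped. Its log2 signal was 9.83, 10.05 and 9.78 in WT replicates 1 to 3. In WT(hsf1) it was 9.36, 9.44 and 9.38. In hac1∆ it was 9.80, 9.82 and 9.80, and in hac1∆(hsf1) it was 10.36, 10.46 and 10.30. The 3 arrays of WT(hsf1) lay below, and the 3 of hac1∆(hsf1) above, all other arrays. The strain means, each from 3 arrays with its SD, were 9.89 ± 0.14 for WT, 9.39 ± 0.04 for WT(hsf1), 9.81 ± 0.01 for hac1∆ and, highest, 10.37 ± 0.08 for hac1∆(hsf1). The highest WT array, replicate 2, was also the WT array with the highest HSF1. WT(hsf1), lowest in RPN4, had HSF1 at 8.41 to 8.63, above WT replicates 1 and 3 at 8.08 and 8.11. How RPN4 and HSF1 relate across arrays was not tested.

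The subunit genes had a different order. All 32 had their lowest strain mean in WT(hsf1). The share of all genes lowest there was not counted. It cannot exceed the 2834 of 5449 genes with a mean below that of WT. For 26 of the 32 the 3 WT(hsf1) arrays lay below the other 9, which held for 26.3% of all genes. The highest strain mean was in hac1∆ for 23 subunit genes, in hac1∆(hsf1) for 8 and in WT for 1, RPN8. The split of highest means was not counted over all genes. To put the subunits on 1 scale, each gene's log2 signal was taken relative to its mean over the 12 arrays, and the median over the 32 subunits was read on each array. This relative level was −0.04, 0.06 and −0.09 in WT replicates 1 to 3, −0.24, −0.24 and −0.26 in WT(hsf1), 0.18, 0.17 and 0.10 in hac1∆, and 0.17, 0.11 and 0.09 in hac1∆(hsf1). The 2 strains without HAC1 overlapped each other and lay above WT, and WT lay above WT(hsf1). The range of a subunit gene's strain means ran from 0.26 on the log2 scale (RPN5) to 0.62 (RPT3), against 0.98 for RPN4.

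**Figure D1:**
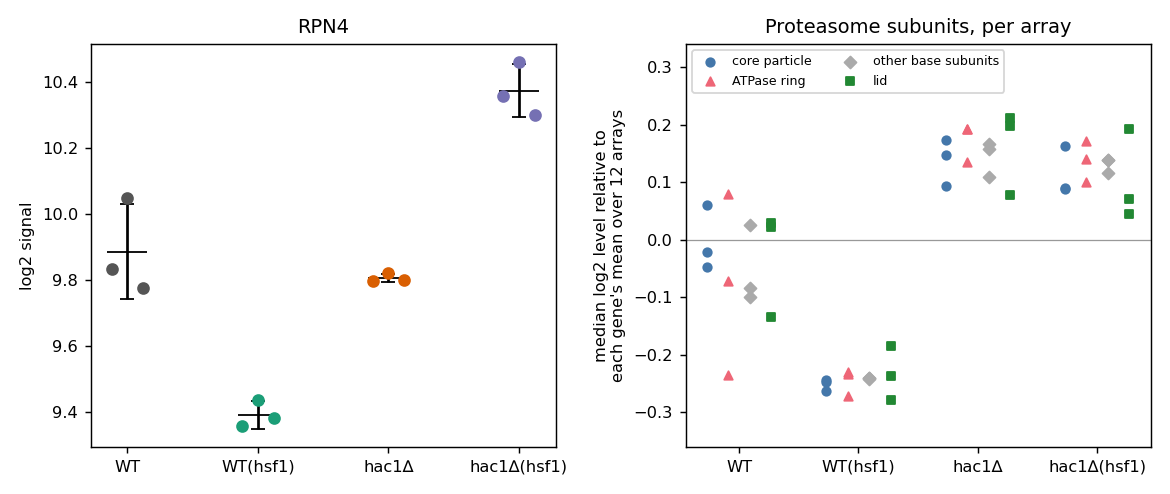
Left, log2 signal of RPN4 on each array by strain, with points for the 3 replicates and a line and bars for mean ± SD. Right, the median over the genes of each subcomplex of the log2 signal relative to each gene's mean over 12 arrays, 1 point per array. RPN4 is higher in hac1∆(hsf1) than in hac1∆, while the subunit medians of these strains overlap.

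**Figure D2:**
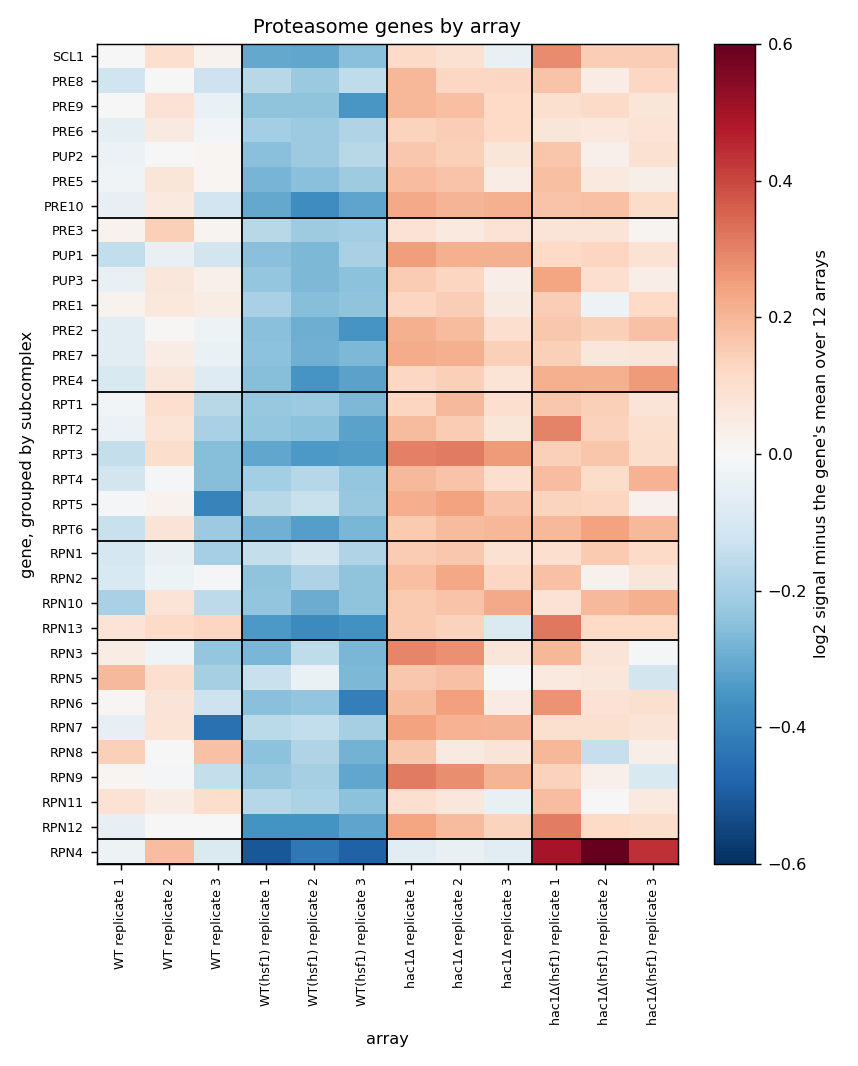
Log2 signal of the 33 members on the 12 arrays, each gene relative to its own mean over the arrays, with rows grouped as alpha ring, beta ring, ATPase ring, other base subunits, lid and RPN4, and columns by strain. The WT(hsf1) columns are low for the subunits and for RPN4, the hac1∆(hsf1) columns are high for RPN4, and RPT5 and RPN7 are low in WT replicate 3.

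Loss of HAC1 under DTT was first examined by setting hac1∆ against WT. Of the 33 members 22 were higher in hac1∆ (limma, Benjamini-Hochberg adjusted p under 0.05) and none was lower, where 28.4% of all genes were called higher and 22.3% lower. All 22 were subunit genes. The median change of the 32 subunits was 0.19 on the log2 scale, beside 0.03 over all genes, and single changes ran from −0.04 to 0.39. RPN4 was not among the genes called, at −0.08 ± 0.07 (log2 fold change ± SE, limma adjusted p = 0.334). For 21 subunit genes every hac1∆ array lay above every WT array, as it did for 34.2% of all genes.

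All 6 genes of the ATPase ring rose in hac1∆, with a median change of 0.28. RPT3 had the largest change of any member, at signals of 9.61, 9.86 and 9.50 in WT and 10.06, 10.07 and 10.01 in hac1∆. The hac1∆ arrays of RPT3 were all above the WT arrays, and it rose by 0.39 ± 0.07 (limma adjusted p = 0.000808). RPT4 had 9.93, 10.03 and 9.78 in WT and 10.23, 10.21 and 10.14 in hac1∆, apart again, and rose by 0.28 ± 0.06 (adjusted p = 0.00191). RPT6 had 10.20, 10.41 and 10.12 in WT and 10.49, 10.53 and 10.54 in hac1∆. RPT5 had 9.49, 9.53 and 9.10 in WT and 9.72, 9.75 and 9.67 in hac1∆. WT replicate 3 lay far below the other WT arrays for RPT5, and it was the lowest WT array for all 6 ATPase genes. Without it RPT5 changed by 0.20 in place of 0.34 and was still called, RPT3 changed by 0.31, and RPT1 and RPT2 were no longer called, at 0.10 and 0.11. The wider ACT1 gap of that array, given above, moves with these values, and its part in them was not tested.

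In the core particle 9 of 14 genes rose in hac1∆, with medians of 0.14 in the alpha ring and 0.15 in the beta ring. PRE10, of the alpha ring, had signals of 10.38, 10.49 and 10.32 in WT and 10.65, 10.63 and 10.64 in hac1∆. These groups did not overlap, and PRE10 rose by 0.25 ± 0.05 (limma adjusted p = 0.00102). PRE8, PRE9, PRE6 and PUP2 were the other alpha ring genes called, with PRE8 at 10.25, 10.37 and 10.25 in WT and 10.57, 10.50 and 10.50 in hac1∆. Among the proteolytic subunits, PUP1 (trypsin-like activity) had 9.70, 9.81 and 9.74 in WT and 10.10, 10.06 and 10.07 in hac1∆. It rose by 0.33 ± 0.04 (adjusted p = 5.51e-05), and PRE2 (chymotrypsin-like activity) by 0.20 ± 0.05 (adjusted p = 0.00333). PRE3 (caspase-like activity) had 10.49, 10.61 and 10.48 in WT and 10.55, 10.52 and 10.55 in hac1∆. PRE3 overlapped between the strains and was not called, at 0.02 ± 0.04 (adjusted p = 0.768). PRE7 and PRE4 also rose, while SCL1, PRE5, PUP3 and PRE1 were not called, at 0.01 to 0.11.

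Among the other base subunits RPN1 and RPN2, the large scaffold proteins, and RPN10, a ubiquitin receptor, rose. RPN1 had 9.87, 9.93 and 9.78 in WT and 10.13, 10.14 and 10.07 in hac1∆, a rise of 0.25 ± 0.05 (limma adjusted p = 0.000814). RPN13, the other ubiquitin receptor, was not called, at −0.04 ± 0.07 (adjusted p = 0.672). In the lid 4 of 8 genes rose (RPN3, RPN7, RPN9 and RPN12), and the median was 0.19. RPN9 had 10.01, 9.99 and 9.86 in WT and 10.31, 10.28 and 10.20 in hac1∆. RPN7 had 9.90, 10.03 and 9.50 in WT and 10.19, 10.16 and 10.15 in hac1∆. RPN7 rose by 0.36 ± 0.10 (adjusted p = 0.00887). WT replicate 3 was again the low WT array, and leaving it out gave a rise of 0.20. RPN11, the deubiquitinase, and RPN8, its partner in the lid, were not called, at −0.04 ± 0.06 and −0.01 ± 0.08. RPN5 and RPN6 were not called either, at 0.08 and 0.18. Leaving out WT replicate 3 left 17 subunit genes called, and leaving out replicate 2 left 22.

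In cells with HAC1, what accompanies the hsf1 addition was read from WT(hsf1) against WT. Here 26 of 33 members were lower and none higher, where 33.8% of all genes were called lower and 32.3% higher. The 26 were RPN4 and 25 subunit genes. The median change of the subunits was −0.22, beside −0.01 over all genes. All 32 subunit changes were negative, from −0.47 to −0.03, as were those of 2834 of all 5449 genes. After quantile normalization 30 subunit changes were negative, and without WT replicate 2 the count was 29. RPN4 fell by 0.49 ± 0.07 on the log2 scale (limma adjusted p = 2.39e-05), the largest decrease of any member. Leaving out WT replicate 2 gave −0.41. Every WT(hsf1) array lay below every WT array for RPN4 and 26 subunit genes, as for 37% of all genes. This comparison and that of hac1∆ share the WT arrays.

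RPN13 had the largest decrease of the subunit genes, with 10.08, 10.11 and 10.12 in WT and 9.65, 9.61 and 9.63 in WT(hsf1). All 3 WT(hsf1) arrays were lower, and RPN13 fell by 0.47 ± 0.07 (limma adjusted p = 5.04e-05). RPN8 followed, at 10.28, 10.13 and 10.31 in WT and 9.89, 9.95 and 9.85 in WT(hsf1), apart again, and fell by 0.34 ± 0.08 (adjusted p = 0.00159). In all, 5 lid genes fell (RPN6, RPN8, RPN9, RPN11 and RPN12), with a lid median of −0.24. RPN12 had 9.95, 10.00 and 10.00 in WT and 9.64, 9.64 and 9.68 in WT(hsf1). RPN3, RPN5 and RPN7 were not called, at −0.16, −0.18 and −0.03. Without WT replicate 3 all 8 lid genes and all 6 ATPase genes were called lower, RPN7 then at −0.18 and RPT5 at −0.18. Without WT replicate 2, 23 subunit genes were called.

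The core particle fell in 13 of 14 cases, with medians of −0.27 in both rings. SCL1, of the alpha ring, had 10.64, 10.74 and 10.66 in WT and 10.33, 10.32 and 10.39 in WT(hsf1). It did not overlap and fell by 0.33 ± 0.06 (limma adjusted p = 0.000169). PRE3, not called in the hac1∆ comparison, had 10.30, 10.25 and 10.26 in WT(hsf1) and fell by 0.26 ± 0.04 (adjusted p = 0.000222). PRE4, of the beta ring, had 10.30, 10.46 and 10.32 in WT and 10.14, 10.04 and 10.07 in WT(hsf1). PRE8 was the exception, at −0.10 ± 0.05 (adjusted p = 0.105). Of the ATPase genes 4 fell, with a median of −0.21, and RPT4 and RPT5 were not called, at −0.08 and −0.05. Without WT replicate 2 the median was −0.13, with 3 of 6 called. RPN2, RPN10 and RPN13 fell, and RPN1, with 9.84, 9.87 and 9.80 in WT(hsf1), was not called, at −0.03 ± 0.05 (adjusted p = 0.611).

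**Figure D3:**
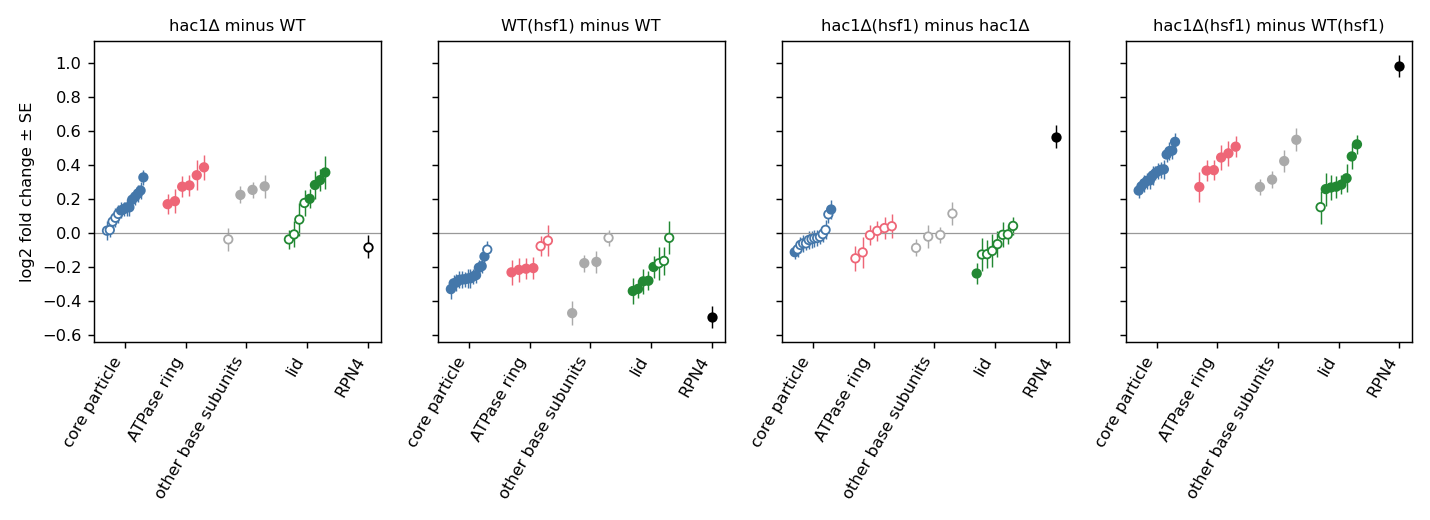
Log2 fold changes ± SE of each member in 4 comparisons, by subcomplex, from the fit over all 12 arrays. Filled points passed the limma test and open points did not. Of the 32 subunit genes, 22 are filled and above 0 for hac1∆ against WT, 25 filled and below 0 for WT(hsf1) against WT, and 31, all but RPN5, filled and above 0 for hac1∆(hsf1) against WT(hsf1). Between the strains without HAC1, 3 are filled.

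In cells that lack HAC1 the addition was examined by setting hac1∆(hsf1) against hac1∆. RPN4 rose by 0.57 ± 0.07 (1.48-fold, limma adjusted p = 1.35e-05), with its 3 arrays apart from those of hac1∆. The subunit genes had a median change of −0.03, beside −0.01 over all genes, and ran from −0.24 to 0.14. Of all members 2 were called higher and 2 lower, where 26.5% of all genes were called higher and 30.7% lower. RPN9 fell by 0.24 ± 0.06 (adjusted p = 0.00648), with 10.13, 10.03 and 9.90 in hac1∆(hsf1), all below hac1∆. PUP1 fell by 0.11 ± 0.04 (adjusted p = 0.0358), with 9.97, 9.98 and 9.94 in hac1∆(hsf1). SCL1 rose by 0.14 ± 0.06 (adjusted p = 0.0492), with 10.92, 10.78 and 10.79 in hac1∆(hsf1) against 10.75, 10.73 and 10.59. The SCL1 call ended under 14 of 20 alternatives and the PUP1 call under 8 of 20. With each array centred on its median the split was 1 member higher, RPN4, and 4 lower. Medians were −0.04 and −0.02 in the alpha and beta rings, −0.0006 in the ATPase ring, −0.02 in the other base subunits and −0.09 in the lid. The lid's median ran from −0.13 to −0.05 with 1 array left out and was −0.02 after quantile normalization. The SEs of single subunit genes were 0.04 to 0.10.

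The hsf1 effect in hac1∆ cells was tested against that in WT cells as an interaction. RPN4 fell with hsf1 in WT and rose with it in hac1∆, and the effects differed by 1.06 ± 0.09 (limma adjusted p = 4.56e-07). Of the 33 members 19 had a more positive hsf1 effect in hac1∆ than in WT and none a more negative one, where 35.7% of all genes were called in that direction and 34% in the other. For the subunits the median difference was 0.21, beside 0.01 over all genes. The beta ring had 6 of 7 genes called and the alpha ring 5 of 7, against 2 of 6 in the ATPase ring, 1 of 4 in the other base subunits and 4 of 8 in the lid. These differences between subcomplexes were not tested. Without WT replicate 3 the medians were 0.245 in the core particle, 0.215 in the ATPase ring and 0.215 in the lid, and with median centring 2 of 8 lid genes were called. Without WT replicate 2, 15 subunit genes were called, and with median centring 13. RPN13 differed most among the subunits, by 0.59 ± 0.10 (adjusted p = 0.000136), followed by SCL1 at 0.47 ± 0.08 (adjusted p = 0.000149). Among the genes not called were RPN1 at 0.02, PUP1 at 0.03 and RPN7 at −0.10.

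Strains without and with HAC1 were compared a second time within the hsf1 strains, by hac1∆(hsf1) against WT(hsf1). The 6 arrays used are not in the comparison of hac1∆ with WT. These strains also differed in HSF1 signal, with means of 8.52 in WT(hsf1) and 10.67 in hac1∆(hsf1). The absence of HAC1 and this difference in HSF1 cannot be told apart here. All members but RPN5 were higher, 32 of 33, where 41.7% of all genes were called higher and 35.8% lower. RPN4 rose by 0.98 ± 0.07 (1.97-fold, limma adjusted p = 2.25e-08). Its arrays and those of 31 subunit genes did not overlap, all higher in hac1∆(hsf1), as for 42.5% of all genes. The subunit median was 0.36, beside 0.04 over all genes. It was 0.34 in the alpha ring, 0.36 in the beta ring, 0.41 in the ATPase ring, 0.37 in the other base subunits and 0.28 in the lid. RPN13 rose from 9.65, 9.61 and 9.63 in WT(hsf1) to 10.31, 10.11 and 10.11 in hac1∆(hsf1), a change of 0.55 ± 0.07 (adjusted p = 8.49e-06). PRE4 rose from 10.14, 10.04 and 10.07 to 10.60, 10.61 and 10.65, a change of 0.54 ± 0.05 (adjusted p = 5.04e-07). In both genes the arrays were well apart. RPN12, with 10.30, 10.12 and 10.10 in hac1∆(hsf1), changed by 0.52 ± 0.06, and RPT6, with 10.05, 10.01 and 10.07 in WT(hsf1) and 10.53, 10.58 and 10.53 in hac1∆(hsf1), by 0.51 ± 0.06. RPN5 had 9.93, 10.02 and 9.79 in WT(hsf1) and 10.12, 10.13 and 9.95 in hac1∆(hsf1). These overlapped, and RPN5 was not called, at 0.15 ± 0.10 (adjusted p = 0.17).

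The changes from a strain with HAC1 to one without it, in the 2 backgrounds, were not ordered alike over the subunits. Across the 32 subunit genes, which share arrays and are not independent, Pearson's r between them was 0.04. The change was larger with hsf1 for 29 of the 32, and for 2804 of all 5449 genes. This difference is the interaction given above and not a further result. The count was 32 without WT replicate 3 and 26 without WT replicate 2. RPN13, RPN8 and RPN11 changed by −0.04, −0.01 and −0.04 without hsf1 and by 0.55, 0.27 and 0.28 with it. RPT5 and RPN7 changed by 0.34 and 0.36 without hsf1 and by 0.27 and 0.26 with it, and WT replicate 3 entered the first pair of values. For the hsf1 effects in the 2 backgrounds the r over the subunits was −0.44.

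**Figure D4:**
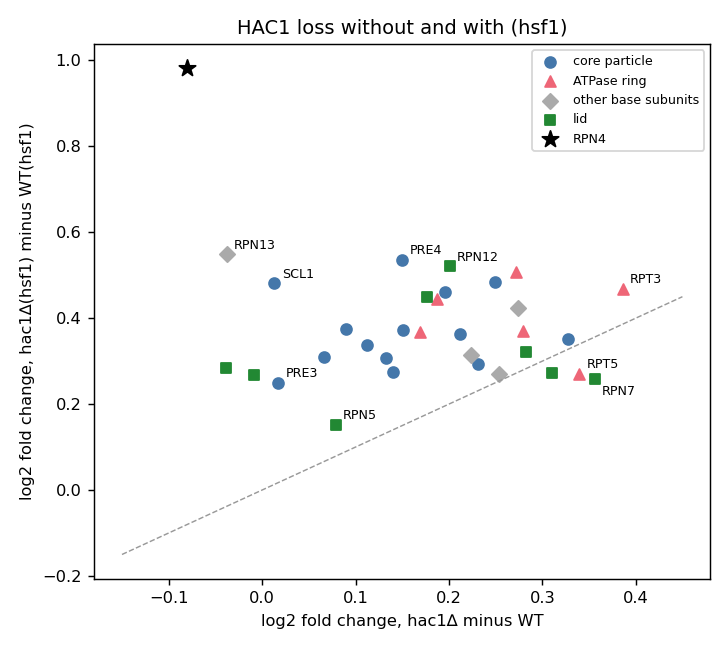
Log2 fold change of each member in hac1∆ against WT (horizontal axis) and in hac1∆(hsf1) against WT(hsf1) (vertical axis), by subcomplex; the dashed line marks equal change. RPN4 lies at −0.08 and 0.98, and 29 of the 32 subunit genes lie above the line. The height above the line is the interaction.

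In hac1∆(hsf1) against WT, which differ in both named changes, 18 members were higher and none lower, where 29% of all genes were called higher and 28.1% lower. RPN4 rose by 0.49 ± 0.07 (limma adjusted p = 6.66e-05). The subunit median was 0.16, beside 0.01 over all genes. All 6 ATPase genes rose, with RPT6 at 0.30 ± 0.06 (adjusted p = 0.00133) and RPT4 at 0.29 ± 0.06 (adjusted p = 0.00116), where RPT4 had 10.22, 10.15 and 10.25 in hac1∆(hsf1). In the lid 1 of 8 genes rose, RPN12, and 7 of 14 in the core particle. Without WT replicate 3 the subunit genes called higher went from 17 to 11 and the ATPase genes from 6 to 2. Without WT replicate 2 there were 20 subunit genes, among them 3 of the lid. Quantile normalization gave 22 subunit genes, 4 of them of the lid, and median centring 12, with 4 of 6 ATPases. A fit of the compared strains alone gave 10 members.

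In the genome the members are scattered over 13 chromosomes, and 2 pairs are separated by a single gene: PRE4 and RPN12 flank RET2, and RPT4 and RPN8 flank GCD1. From WT to hac1∆, PRE4 and RPN12 rose by 0.15 and 0.20, and from WT(hsf1) to hac1∆(hsf1) by 0.54 and 0.52. RPT4 rose by 0.28 from WT to hac1∆, where RPN8 was at −0.01 and not called. From WT(hsf1) to hac1∆(hsf1) both rose, RPT4 by 0.37 and RPN8 by 0.27.

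Genes that build or feed the proteasome were read from 4 lists chosen with earlier results known. For all genes, the shares called were 33.8% lower and 32.3% higher in WT(hsf1) and 28.4% higher and 22.3% lower in hac1∆, each against WT, with medians of −0.01 and 0.03. Of 11 assembly chaperone genes, WT(hsf1) had 8 lower and 1 higher (median −0.29). In hac1∆ 1 was higher, below the 28.4% of all genes, and 3 were lower, near the 22.3% of all genes (median −0.06). RPN14, a chaperone of the base, had signals of 7.66, 8.11 and 7.77 in WT, 7.47, 7.44 and 7.57 in WT(hsf1), 7.60, 7.65 and 7.55 in hac1∆ and 8.59, 8.69 and 8.46 in hac1∆(hsf1). It stood highest in hac1∆(hsf1), where it was 0.98 ± 0.10 above hac1∆ (limma adjusted p = 3.48e-06). TMA17, a stress-induced chaperone of the base, had 10.38, 10.39 and 10.51 in WT and 9.63, 9.51 and 9.63 in WT(hsf1), and fell by 0.84 ± 0.05 (adjusted p = 2.01e-08). From hac1∆ to hac1∆(hsf1) TMA17 rose by 0.31 ± 0.05. POC4, of an alpha ring assembly pair, went the other way: it had 7.34, 7.37 and 7.50 in WT and 8.18, 8.15 and 8.16 in WT(hsf1), a rise of 0.76 ± 0.06 (adjusted p = 2.28e-07).

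Of 12 proteasome partners, WT(hsf1) had 9 lower and 1 higher relative to WT, beside 33.8% lower over all genes. In hac1∆ 5 were higher and 1 lower, beside 28.4% and 22.3%. DDI1, a shuttle for ubiquitinated proteins, had signals of 7.66 to 7.82 in WT(hsf1), below every WT array, and of 8.62 to 8.67 in hac1∆, above every WT array. It fell by 0.56 ± 0.05 in WT(hsf1) and rose by 0.37 ± 0.05 in hac1∆ (limma adjusted p = 9.07e-07 and 0.00011). HUL5, a ubiquitin ligase bound to the proteasome, was 0.72 ± 0.07 higher in hac1∆(hsf1) than in WT(hsf1). CIC1, the member that was higher in WT(hsf1), is a nucleolar protein also known from ribosome assembly, and it rose by 1.10 ± 0.04 there.

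Of 23 ubiquitin and Cdc48 genes, WT(hsf1) had 15 lower and 1 higher relative to WT (median −0.26), beside 33.8% lower over all genes. In hac1∆ 11 were higher and 4 lower (median 0.14), beside 28.4% and 22.3%. Between the hsf1 strains 20 were higher without HAC1 and none lower (median 0.36), beside 41.7% and 35.8% of all genes and an all-gene median of 0.04. UBC5, a stress-related ubiquitin-conjugating enzyme, had the largest change of the list in WT(hsf1) against WT and in hac1∆(hsf1) against WT(hsf1). Its signals were 9.70, 10.06 and 9.85 in WT, 8.74, 8.73 and 8.84 in WT(hsf1), 10.08, 10.12 and 10.05 in hac1∆, and 10.39, 10.47 and 10.39 in hac1∆(hsf1). UBC5 fell by 1.10 ± 0.08 in WT(hsf1) (limma adjusted p = 4.25e-08) and was 3.13-fold higher in hac1∆(hsf1) than in WT(hsf1). OTU1, a deubiquitinase that works with Cdc48, rose by 0.50 ± 0.05 in hac1∆ and fell by 0.51 ± 0.05 in WT(hsf1). NPL4, a Cdc48 cofactor, rose by 0.28 ± 0.07 and fell by 0.56 ± 0.07 in the same comparisons.

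Among 7 known regulators of RPN4, 3 rose and none fell from hac1∆ to hac1∆(hsf1), beside 26.5% and 30.7% of all genes. These were HSF1 and PDR3, transcription factors known to activate RPN4, and RAD6, which with UBR2 and MUB1 marks the Rpn4 protein for degradation. YAP1 and PDR1, the other transcription factors of the list, were not called in this comparison. The list thus pools activators of RPN4 with genes for the degradation of its protein. Between the hsf1 strains all 7 were higher without HAC1, beside 41.7% of all genes called higher and 35.8% lower. In WT(hsf1) against WT 1 was higher and 3 were lower, beside 32.3% and 33.8%. For hac1∆ against WT, 1 was higher, PDR1 at 0.19, and 1 lower, HSF1 at −0.77, beside 28.4% and 22.3%. Without WT replicate 2 the change of HSF1 was −0.26. PDR3 had 6.37, 6.80 and 6.28 in WT, 6.95 to 7.06 in WT(hsf1), 6.33, 6.41 and 6.45 in hac1∆ and 7.15, 7.59 and 7.30 in hac1∆(hsf1). It was thus higher in both hsf1 strains than in the strains without the addition, by 0.52 ± 0.12 (limma adjusted p = 0.0024) and 0.95 ± 0.12 (adjusted p = 3.39e-05), whereas RPN4 was lower in one and higher in the other. UBR2, the ubiquitin ligase, had 7.47, 7.30 and 7.38 in WT and 6.93, 6.94 and 6.92 in WT(hsf1), and fell by 0.45 ± 0.07 (adjusted p = 0.000118). HSF1 in WT(hsf1) was not called against WT, at −0.08 ± 0.30 (adjusted p = 0.831). Leaving out WT replicate 2 gave a called rise of 0.43.

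**Figure D5:**
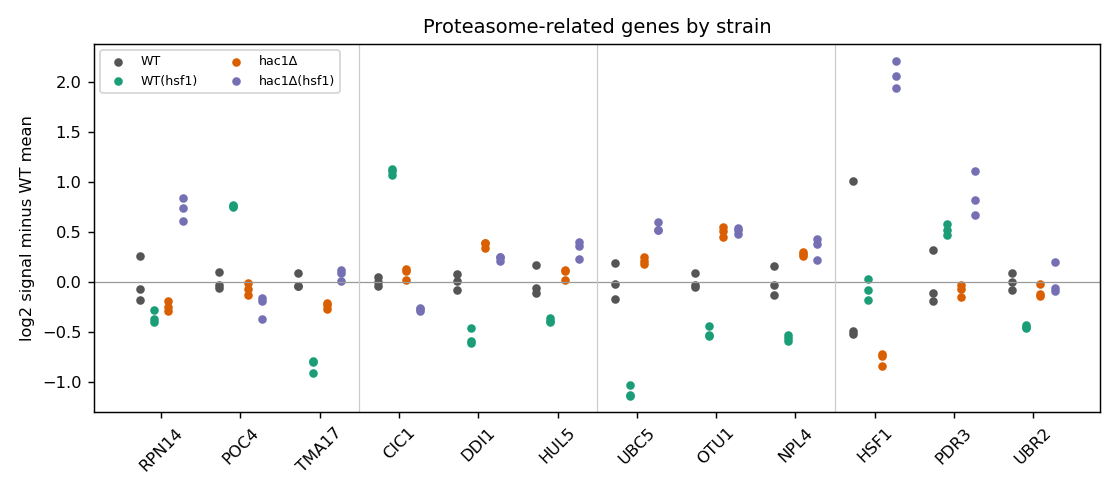
Log2 signal of the 12 genes named from the 4 lists for their largest called changes, relative to the WT mean. Each array has 1 point, and colours mark the strains. Vertical lines divide assembly chaperones, proteasome partners, ubiquitin and Cdc48 genes, and regulators of RPN4. UBC5 and TMA17 are lowest in WT(hsf1), CIC1 and POC4 are highest there, and HSF1 is highest in hac1∆(hsf1).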

How the data were processed

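Gene expression was measured on Affymetrix arrays, 1 per culture. The authors deposited 1 signal for each probe set of each array, here taken as log2 because the values span 4.84 to 12.75. PLIER was used, per the submitters' processing notes. Its settings, the normalization and the log base are not given in these sources. Of 10928 probe sets, 5498 matched a S. cerevisiae gene through the platform's annotation and the RefSeq gene table (R64). For 47 genes with several probe sets only the brightest on average was kept, which left 5449 genes. Background, 5.49, is the percentile 95 of mean signals over 1746 probe sets whose listed gene was not in that table, taken as the second yeast's. Probe sets differ in response, so levels were not compared between genes. No 2 arrays were identical.

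All genes and 12 arrays entered 1 fit in limma 3.58.1 (R 4.3.3), with a mean for each strain, moderated by empirical Bayes, with Benjamini-Hochberg adjustment over all genes of a comparison and calls at an adjusted p under 0.05. "Higher", "lower", "rose" and "fell" refer to such calls, and changes are log2 fold changes ± SE. The fit was tested on simulated data. Subcomplexes are described by counts and medians and were not tested. The alternatives were a background filter, quantile normalization, median centring, fits of the compared strains alone, array weights, an intensity trend, the mean over probe sets, a replicate block and leaving out each array. A planned search of promoters for motifs was not run, as no promoter sequence was used here.

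The members and lists were chosen with earlier results of these data known. The genes given with values on each array were RPN4, the member with the largest and the smallest range of strain means in each subcomplex, and the 3 largest called rises and falls in each comparison. From each list at most 3 genes with the largest called change were named. RAD6, MUB1, YAP1, PDR1 and SEM1 were named besides, after their values were seen. Of the listed genes, ADC17 was not matched to a probe set.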

Additional observations from a re-analysis of the deposited data

Results flagged for a closer look

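For 19 members the effect of hsf1 differed between hac1∆ and WT cells by the interaction test (limma adjusted p under 0.05), each more positive in hac1∆. The difference was 1.06 for RPN4. In the core particle it was 0.47 for SCL1, 0.22 for PRE9, 0.17 for PUP2, 0.23 for PRE5, 0.24 for PRE10, 0.23 for PRE3, 0.29 for PUP3, 0.24 for PRE1, 0.27 for PRE2, 0.15 for PRE7 and 0.39 for PRE4. In the regulatory particle it was 0.26 for RPT2, 0.24 for RPT6, 0.59 for RPN13, 0.27 for RPN6, 0.28 for RPN8, 0.32 for RPN11 and 0.32 for RPN12. The calls of PRE7, RPN8, RPT2, RPN6, PUP2 and RPT6 ended under 15, 9, 8, 7, 6 and 6 of 19 alternatives.

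The effect of hsf1 also differed between the 2 backgrounds for all 12 genes named from the lists for their largest called changes. It was more positive in hac1∆ by 1.33 for RPN14, 1.14 for TMA17, 0.42 for DDI1, 0.64 for HUL5, 1.43 for UBC5, 0.52 for OTU1, 0.63 for NPL4, 2.92 for HSF1, 0.43 for PDR3 and 0.56 for UBR2. It was more negative for POC4, at −0.93, and for CIC1, at −1.47. Without WT replicate 2 the difference was 2.42 for HSF1 and 0.27 for PDR3, and that of PDR3 was no longer called.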

How the results depend on the processing

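RPN4 kept its direction and its side of the threshold in the 6 comparisons under each alternative run, except for its uncalled change in hac1∆, which ran from −0.14 to 0.00 with 1 array left out. No called result turned its direction. For single subunits, 131 of 1392 called values lost their call with an array left out and 24 of 912 others gained one. Under the other alternatives 47 of 910 lost and 28 of 594 gained a call. Where values moved, the cause was not tested.

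From hac1∆ to hac1∆(hsf1), 1 member was higher with genes above background, median centring, only the strains compared, array weights or a replicate block; 1 was lower with quantile normalization, and 4 with median centring or array weights. Leaving out 1 array gave 1 to 3 higher and 1 to 5 lower. For hac1∆(hsf1) against WT, 10 members were higher with only the strains compared.

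Quantile normalization moved the alpha ring's median to 0.18 in hac1∆ against WT, −0.22 in WT(hsf1) against WT and 0.16 in hac1∆(hsf1) against WT. It moved the beta ring's to 0.16 in the last of these, and that of the other base subunits to −0.13 in WT(hsf1) against WT, 0.057 in hac1∆(hsf1) against hac1∆ and 0.25 in hac1∆(hsf1) against WT. Array weights moved the beta ring's to 0.21 in hac1∆ and −0.21 in WT(hsf1) against WT, and that of the other base subunits to −0.12 in the latter. They moved the interaction median to 0.17 in the alpha ring, 0.20 in the beta ring and 0.065 in the other base subunits.

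With 1 array left out, medians ran from 0.29 to 0.37 for the alpha ring in hac1∆(hsf1) against WT(hsf1), from 0.12 to 0.20 and −0.29 to −0.23 for the beta ring in hac1∆ and WT(hsf1) against WT, and from 0.16 to 0.32 for the ATPase ring in hac1∆(hsf1) against WT. For the other base subunits they ran from −0.21 to −0.13 in WT(hsf1) against WT and from 0.073 to 0.16 for the interaction.

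Replicate numbers were not taken to pair the cultures: the labels do not say so, and over 18 same-numbered pairs correlations of deviations from strain means ran from −0.25 to 0.50, with 8 over 0.1. With the replicate block 23 members were higher in hac1∆ than in WT, 28 lower in WT(hsf1), 33 higher in hac1∆(hsf1) than in WT(hsf1), RPN5 included, and RPN4's interaction stayed at 1.06. The planned motif count was not run.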
